A study of Mus musculus with 10 samples.

Results

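Cultured mouse Wolffian ducts held active by SAG, an agonist of the membrane protein Smoothened, were compared with ducts in which cyclopamine, a plant alkaloid, inhibited the same protein. The arrays were chosen by the treatment in their titles: 4 SAG arrays and 3 cyclopamine arrays, 7 of the 10 arrays in all. The other 3 arrays, described as cultured in medium and called vehicle in their titles, gave the level between these ends. Ducts came from embryos at 16.5 days post-coitum and were kept at an air-liquid interface for 72 h in 0.5 µM SAG, 25 µM cyclopamine or medium, so the doses of the 2 compounds differed. The sources used here do not give the strain, the sex, the number of ducts behind each array or the solvent, and the titles name the tissue pronephros where the protocols name the Wolffian duct. The series describes its arrays as biological replicates.

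The Wolffian duct is the embryonic tube that becomes the epididymis, vas deferens and seminal vesicle in males. It consists of an epithelial tube and a surrounding mesenchyme, part of which becomes smooth muscle. Hedgehog ligands made by epithelia bind the receptor Patched on neighbouring cells, which frees Smoothened and turns GLI proteins into activators of transcription. Gli1, Ptch1 and Hhip are direct targets in most tissues and serve as readouts of the pathway, and Ptch1 and Hhip also restrain it.

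Each value is a log2 signal of a probe set, so a difference of 1 is a 2-fold difference. Array medians lay between 7.55 and 7.70. On the first principal component, which held 41.8% of the variance, SAG arrays lay at 33.9 to 37.3, vehicle arrays at 5.18 to 9.74 and cyclopamine arrays at -59.7 to -49.0. On the second component, with 16.6% of the variance, cyclopamine replicate 2 stood apart at -51.7 from the other cyclopamine arrays at 13.0 and 13.6. Defining genes of both compartments of the duct were present: on the vehicle arrays the epithelial cadherin Cdh1 averaged 14.37, the duct transcription factor Pax2 10.001 and the muscle actin Acta2 17.04.

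Between SAG and cyclopamine, 2518 of 22206 probe sets passed limma's test at an adjusted p below 0.05, which is 11.3% of those tested. Of these, 1203 (5.42%) were higher with SAG and 1315 (5.92%) were higher with cyclopamine, and 391 differed by more than 4-fold. This balance turned with the scaling: 1414 were higher with SAG and 1193 with cyclopamine after each array was centred on its median, and 1297 and 1281 after quantile normalization. The SAG and cyclopamine arrays did not overlap in 21.2% of all probe sets, and in 2450 (11%) they did not overlap and the test passed. The number was 1843 without cyclopamine replicate 1 and 2855 without cyclopamine replicate 2. The hedgehog targets Hhip and Gli1 showed the widest differences among named genes higher with SAG, and the estrogen sulfotransferase Sult1e1 showed the widest among those higher with cyclopamine.

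For each of these probe sets the vehicle mean was placed on a scale from 0% at the cyclopamine mean to 100% at the SAG mean. The vehicle mean lay between both ends in 2099 probe sets (83.4%), beyond the SAG mean in 370 (14.7%) and beyond the cyclopamine mean in 49 (1.95%). The median position was 68.1%, with quartiles of 49.2% and 87.4%, and it was 69.2%, 62.0% and 72.3% when computed from each vehicle array alone. Unequal array numbers alone would place a probe set with no real difference at 57.1%, since the selection rests on the SAG and cyclopamine arrays. The median was 73.7% for probe sets higher with SAG and 64.0% for those higher with cyclopamine. This order turned when each array was centred on its median, which gave 65.8% and 70.0%.

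**Figure D1:**
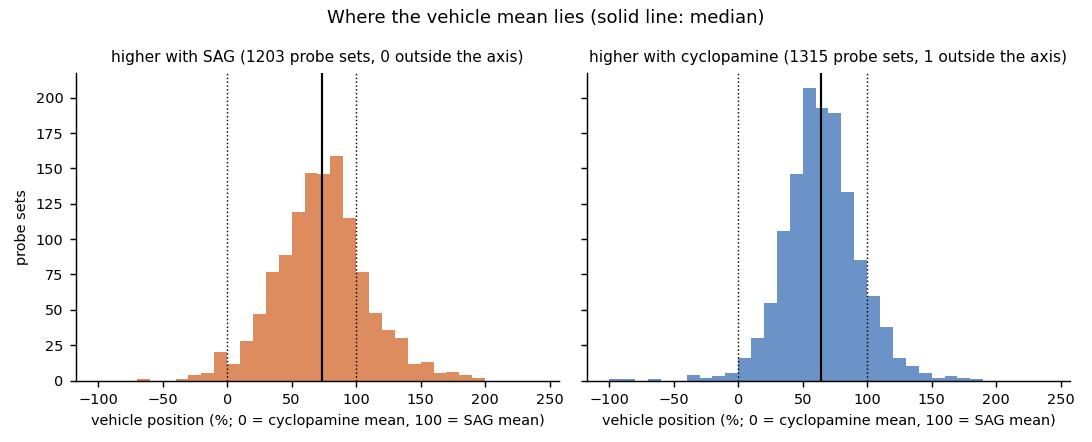
Number of probe sets (vertical axis) by the position of the vehicle mean in percent (horizontal axis, 0 at the cyclopamine mean and 100 at the SAG mean, dotted lines), for the 1203 probe sets higher with SAG and the 1315 higher with cyclopamine. The solid lines mark the medians, 73.7% and 64.0%, and both distributions spread past 100%.

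Whether the step from cyclopamine to vehicle and the step from vehicle to SAG differed in size was tested as the distance of the vehicle mean from the midpoint of the ends. Both steps share the vehicle arrays, so an error in the vehicle mean lengthens one step and shortens the other. Of all 22206 probe sets 70 passed (0.315%), 60 of them with the vehicle above the midpoint (0.27%) and 10 below it (0.045%), and of the 2518 that differed between SAG and cyclopamine 53 passed (2.1%). In 47 of these 53 the vehicle lay nearer SAG, and 41 of the 47 were higher with SAG. In 6 the vehicle lay nearer cyclopamine. When vehicle replicate 1, 2 or 3 was omitted, the 47 became 15, 8 and 16, and they became 92 when cyclopamine replicate 2 was. The 6 became 1, 0 and 0 on omitting vehicle replicate 1, 2 or 3, 3 and 1 on omitting SAG replicate 3 or 4, and 2 and 1 on omitting cyclopamine replicate 1 or 3.

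Each of the 2518 probe sets was also sorted by which single step passed its own test. In 50 both steps passed in opposite directions, here called graded. In 892 only the cyclopamine step passed, in 95 only the SAG step, and in 1480 neither step passed although the whole distance did. A step that passed beside one that did not is no evidence that they differ, which is what the midpoint test asks. Over all probe sets, 162 (0.73%) passed between SAG and vehicle and 1136 (5.12%) between cyclopamine and vehicle. Leaving out 1 array moved these counts. Omitting vehicle replicate 1, 2 or 3 gave 19, 15 and 18 graded probe sets, 410, 510 and 483 cyclopamine steps and 43, 29 and 41 SAG steps. Omitting SAG replicate 2, 3 or 4 gave 30, 25 and 32 graded probe sets and 49, 38 and 37 SAG steps. Omitting cyclopamine replicate 1 or 3 gave 529 and 535 cyclopamine steps, and omitting cyclopamine replicate 2 gave 116 graded probe sets and 168 SAG steps.

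**Figure D2:**
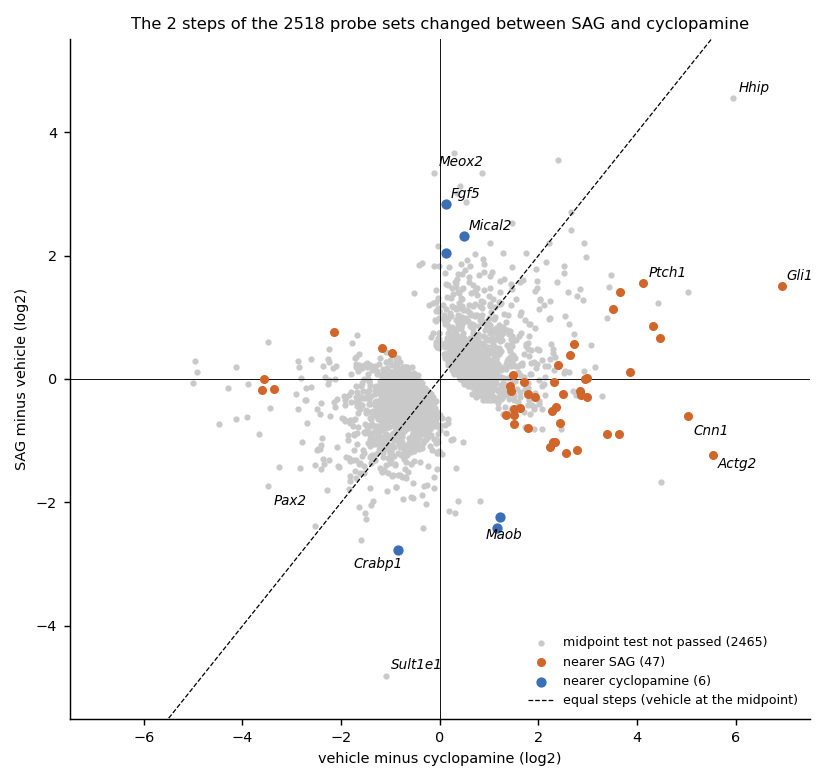
The step from cyclopamine to vehicle (horizontal axis, log2) against the step from vehicle to SAG (vertical axis, log2) for the 2518 probe sets that differed between SAG and cyclopamine, 1 point each. Orange points passed the midpoint test with the vehicle nearer SAG (47), blue points with the vehicle nearer cyclopamine (6), and the dashed line marks equal steps, close to which Hhip lies while Gli1 and Ptch1 lie below it.

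Of 10 measured hedgehog target genes, 7 were higher with SAG, 0 were higher with cyclopamine and 3 did not pass, with a median difference of 1.75 against 0.01 over all probe sets. Foxf2 and Mycn were among the 3 that did not pass. The list was written with earlier results of these data known. Beside the counts of this and later lists, 5.42% of all probe sets were higher with SAG and 5.92% with cyclopamine. Hhip, which encodes a membrane protein that binds and sequesters hedgehog ligands, read 6.21, 6.12 and 5.66 on the cyclopamine arrays, 12.08, 12.67 and 11.09 on the vehicle arrays and 16.01, 16.81, 16.54 and 16.60 on the SAG arrays. The groups followed each other without overlap, as they did in 503 of the 2518 probe sets (20%) and in 2.36% of all probe sets. The whole distance was 10.50 ± 0.33 (log2 ± SE, adjusted p = 9.73e-08), a 1445-fold difference in signal, and the vehicle lay at 56.7% of it (95% interval 50.4% to 63.0%). Both steps of Hhip passed, 5.95 ± 0.35 from cyclopamine to vehicle (adjusted p = 1.15e-05) and 4.55 ± 0.33 from vehicle to SAG (adjusted p = 0.000275). The midpoint test did not separate them (adjusted p = 0.432).

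Gli1, the GLI factor that acts as an activator and is itself induced by the pathway, read 4.56, 5.37 and 4.99 with cyclopamine, 12.63, 11.67 and 11.43 with vehicle and 13.41, 13.41, 13.61 and 13.24 with SAG. The distance was 8.44 ± 0.27 (adjusted p = 9.73e-08) and the vehicle lay at 82.1% (75.5% to 89.0%). The vehicle of Gli1 was nearer SAG by the midpoint test (adjusted p = 0.0022), with a step of 6.93 ± 0.29 below the vehicle and 1.51 ± 0.27 above it, and this call held with each array left out. The cyclopamine mean of Gli1, 4.98, was below the lower quartile of all probe set means, 5.195.

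Ptch1, the receptor that holds Smoothened inactive, read 10.25, 10.16 and 10.23 with cyclopamine, 14.49, 14.58 and 13.95 with vehicle and 15.40, 16.28, 16.15 and 15.74 with SAG. The cyclopamine arrays of Ptch1 had an SD of 0.05 and the SAG arrays an SD of 0.40, and the 3 groups did not overlap. The distance was 5.68 ± 0.22 (adjusted p = 2.75e-07), and the vehicle lay at 72.6% (64.8% to 80.7%) and nearer SAG (adjusted p = 0.0272). That last call was lost without vehicle replicate 1 or 2 (adjusted p = 0.179 and 0.211), SAG replicate 4 (0.0683) or cyclopamine replicate 1 or 3 (0.0588 and 0.0541).

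**Figure D3:**
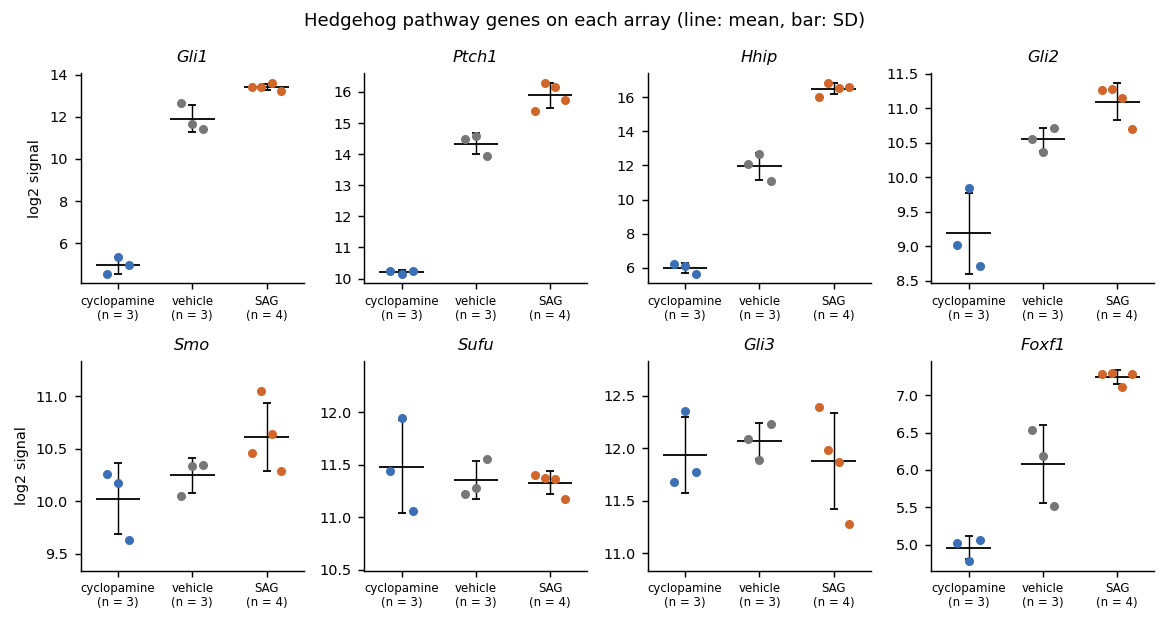
Log2 signal of 8 hedgehog pathway genes on each array (points), with the group mean (line) and SD (bar), for 3 cyclopamine, 3 vehicle and 4 SAG arrays. Gli1, Ptch1, Hhip and Foxf1 step up without overlap from cyclopamine to SAG, Gli2 is lowest with cyclopamine, and Smo, Sufu and Gli3 did not pass.

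Of the genes that transmit the signal inside the cell, Gli2 passed and Smo, Sufu and Gli3 did not. Gli2, the main activator form among the GLI factors, read 9.01, 9.85 and 8.71 with cyclopamine, 10.56, 10.37 and 10.71 with vehicle and 11.26, 11.28, 11.15 and 10.70 with SAG. Its distance was 1.91 ± 0.25 (adjusted p = 0.000696), its vehicle lay at 71.2% (44.6% to 100.3%), and the vehicle and SAG arrays of Gli2 overlapped. Smo, the target of both compounds, read 10.26, 10.17 and 9.63 with cyclopamine, 10.05, 10.33 and 10.35 with vehicle and 10.46, 11.04, 10.64 and 10.29 with SAG, a difference of 0.59 ± 0.21 that did not pass (adjusted p = 0.106). Sufu, which holds GLI proteins in the cytoplasm, differed by -0.15 ± 0.19 (adjusted p = 0.707), and Gli3, the GLI factor that mainly represses, by -0.05 ± 0.25 (adjusted p = 0.934).

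Forkhead genes are hedgehog targets in embryonic stroma. Foxf1, Foxd1 and Foxd2 passed, and Foxf2 of the same list did not. Foxf1 read 5.03, 4.78 and 5.07 with cyclopamine, 6.54, 6.18 and 5.51 with vehicle and 7.29, 7.29, 7.11 and 7.29 with SAG, without overlap, and its vehicle lay at 49.0% of a distance of 2.29 ± 0.21 (adjusted p = 8.1e-05). Foxd1, a stromal factor of the urogenital ridge, read 4.64, 4.75 and 4.62 with cyclopamine, 5.12, 5.18 and 5.22 with vehicle and 6.29, 6.87, 7.50 and 7.09 with SAG, which put the vehicle at 22.2% (-1.82% to 42.5%) of a distance of 2.27 ± 0.23 (adjusted p = 0.000147). Its related gene Foxd2 lay at 33.9% of 1.24 ± 0.14 (adjusted p = 0.000291). The cyclopamine means of Foxd1 and Foxf1, 4.67 and 4.96, and the vehicle mean of Foxd1, 5.17, were below the lower quartile of all probe set means, 5.195. Bcl2, which protects cells from apoptosis, was placed at the other end. Its vehicle lay at 128% (87.9% to 197%), beyond the SAG mean, on a distance of 1.01 ± 0.19 (adjusted p = 0.00596). The midpoint test did not pass for Foxf1 (adjusted p = 0.976), Foxd1 (0.276), Foxd2 (0.614) or Bcl2 (0.118).

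Of 23 ligands, receptors and transducers of the pathway, 4 were higher with SAG, 4 were higher with cyclopamine and 15 did not pass, and the 4 higher with cyclopamine were 2 without SAG replicate 3 or 4 or cyclopamine replicate 1. The glypican Gpc3, a cell surface proteoglycan that binds hedgehog ligands, was the clearest. It read 14.40, 14.06 and 14.52 with cyclopamine, 15.60, 15.57 and 15.48 with vehicle and 16.47, 16.998, 16.69 and 16.91 with SAG, in order and without overlap, and the vehicle lay at 50.2% (36.6% to 63.4%) of 2.44 ± 0.16 (adjusted p = 9.98e-06). Hhat, the enzyme that attaches palmitate to the ligands, read 8.47, 8.80 and 8.74 with cyclopamine, 9.36, 9.07 and 8.89 with vehicle and 9.95, 10.46, 10.07 and 9.98 with SAG. Its distance was 1.45 ± 0.17 (adjusted p = 0.00034) and its vehicle lay at 30.5% (3.31% to 53.9%). The midpoint test of Hhat did not pass (adjusted p = 0.55).

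The co-receptors Boc and Cdon, which both help ligand bind Patched, went opposite ways. Boc was higher with SAG by 1.18 ± 0.24 (adjusted p = 0.00889), and Cdon was lower by -0.95 ± 0.19 (adjusted p = 0.00849). On the cyclopamine arrays Boc read 13.04, 14.01 and 12.99, so replicate 2 lay among the vehicle arrays at 13.94, 13.88 and 14.08, and the SAG arrays read 14.68, 14.39, 14.78 and 14.24. Cdon read 14.95, 14.96 and 14.60 with cyclopamine and 14.28, 14.05, 13.55 and 13.66 with SAG, with the vehicle arrays at 14.31, 13.97 and 14.13, where replicate 1 lay above the highest SAG array and the others among the SAG arrays. The ligand gene Shh, expressed by duct epithelium, was higher with cyclopamine: it read 10.58, 9.44 and 10.68 there, 9.80, 10.27 and 9.23 with vehicle and 8.54, 9.32, 8.73 and 8.72 with SAG, a difference of -1.40 ± 0.33 (adjusted p = 0.0196). That call of Shh was lost without SAG replicate 3 or 4 or cyclopamine replicate 1 or 3, with adjusted p of up to 0.0837. Lrp2, an endocytic receptor of epithelia that takes up Shh, differed by -1.82 ± 0.35 (adjusted p = 0.00692). Scube2, which helps release the ligand, differed by -1.42 ± 0.37 (adjusted p = 0.0324), a call lost without any single SAG array or without cyclopamine replicate 1 (adjusted p of up to 0.079). The difference of Scube2 was -0.89 without cyclopamine replicate 2.

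In smooth muscle genes that passed, the vehicle stood near or past the SAG level. Of 18 measured, 10 were higher with SAG, 0 were higher with cyclopamine and 8 did not pass, with a median difference of 1.02. In all 10 the step from cyclopamine to vehicle passed and the step from vehicle to SAG did not, and their median position was 108.5%. In 6 of the 10 the midpoint test placed the vehicle nearer SAG, against 1.87% of all probe sets that differed and 3.41% of those higher with SAG. In bulk tissue fewer cells of a type and less RNA per cell cannot be told apart. Averaged over the 18 genes, the signal was 9.86 to 10.4 with cyclopamine, 11.8 to 12.1 with vehicle and 11.6 to 11.7 with SAG.

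Cnn1, the actin-binding protein calponin of smooth muscle, read 6.68, 7.18 and 6.67 with cyclopamine, 11.55, 12.02 and 12.09 with vehicle and 11.15, 11.42, 11.47 and 11.08 with SAG. Every vehicle array was above every SAG array, and the step between those groups, -0.61 ± 0.19, did not pass (adjusted p = 0.227). From cyclopamine to SAG Cnn1 differed by 4.43 ± 0.19 (adjusted p = 4.26e-07), and the vehicle lay at 114% (104% to 124%), nearer SAG (adjusted p = 0.000118). Acta2, the smooth muscle actin, read 14.66, 14.76 and 14.75 with cyclopamine, 16.99, 17.12 and 17.02 with vehicle and 16.71, 17.18, 17.02 and 17.08 with SAG, which put the vehicle at 102% of 2.27 ± 0.13 (adjusted p = 4.4e-06). The midpoint calls of Cnn1, Acta2 and Myl9 held with each array left out.

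Myocd, the coactivator that drives smooth muscle genes together with serum response factor, read 4.41, 5.20 and 4.91 with cyclopamine, 8.05, 8.79 and 9.23 with vehicle and 8.41, 9.54, 8.60 and 8.67 with SAG. The vehicle and SAG arrays of Myocd overlapped, and the distance was 3.97 ± 0.33 (adjusted p = 4.31e-05) with the vehicle at 97.0%. The cyclopamine mean of Myocd, 4.84, was below the lower quartile of all probe set means, 5.195. Its midpoint call (adjusted p = 0.0287) was lost without vehicle replicate 2 or 3 (0.208 and 0.116), SAG replicate 3 or 4 (0.0673 and 0.0721) or cyclopamine replicate 1 or 3 (0.0588 and 0.0542). Actg2, the enteric smooth muscle actin, read 6.78, 7.19 and 6.06 with cyclopamine, 11.23, 13.07 and 12.34 with vehicle and 12.29, 10.67, 10.93 and 10.02 with SAG, and its vehicle lay at 129% of 4.30 ± 0.54 (adjusted p = 0.000497). Its midpoint call (adjusted p = 0.0166) was lost without vehicle replicate 2 (0.129) or 3 (0.0806). Myh11, the smooth muscle myosin heavy chain, lay at 132% (110.4% to 161%) of 2.74 ± 0.26 (adjusted p = 9.74e-05), and Tagln, an actin cross-linking protein, at 95.7% of 3.05 ± 0.34 (adjusted p = 0.00026).

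Myl9, the regulatory light chain of smooth muscle myosin, read 11.57, 11.89 and 11.45 with cyclopamine, 14.37, 14.86 and 14.63 with vehicle and 14.19, 14.45, 14.29 and 14.37 with SAG. The distance was 2.69 ± 0.16 (adjusted p = 4.4e-06), with the vehicle at 111% (98.4% to 126%) and nearer SAG (adjusted p = 0.0022). Serum response factor binds the CArG box, and the promoters of the smooth muscle list were searched for it on both strands, in the 250 bases before each RefSeq start (GRCm38.p6). A box was counted only as CC, 6 letters of A or T, then GG, so near matches such as ccctatatgg in Acta2 were left out. Tagln, Myh11, Actg2 and Myocd had no promoter among the sequences searched. Of 14 listed genes with a promoter, 1 held a box (7.14%), against 439 of 27025 genes in all (1.62%). That gene was Myl9, and its sequence is shown because it carries this match, in capitals, at -161 from the start, on chr2:156775214-156775463, plus strand.
Myl9: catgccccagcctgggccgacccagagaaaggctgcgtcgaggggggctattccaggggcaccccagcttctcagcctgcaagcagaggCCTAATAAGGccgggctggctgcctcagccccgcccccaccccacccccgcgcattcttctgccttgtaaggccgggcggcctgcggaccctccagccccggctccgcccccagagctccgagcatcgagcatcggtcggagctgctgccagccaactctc
The 9 letters GACCACCCA, the core that GLI proteins bind, occurred on either strand in 0 of 7 hedgehog target promoters and in 69 of 27025 genes (0.255%). They occurred in 3 of 860 genes higher with SAG (0.349%) and in 2 of 975 higher with cyclopamine (0.205%). The 7 hedgehog target promoters did not include those of Gli1 and Foxf1. A match or its lack in this window describes the letters only.

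**Figure D4:**
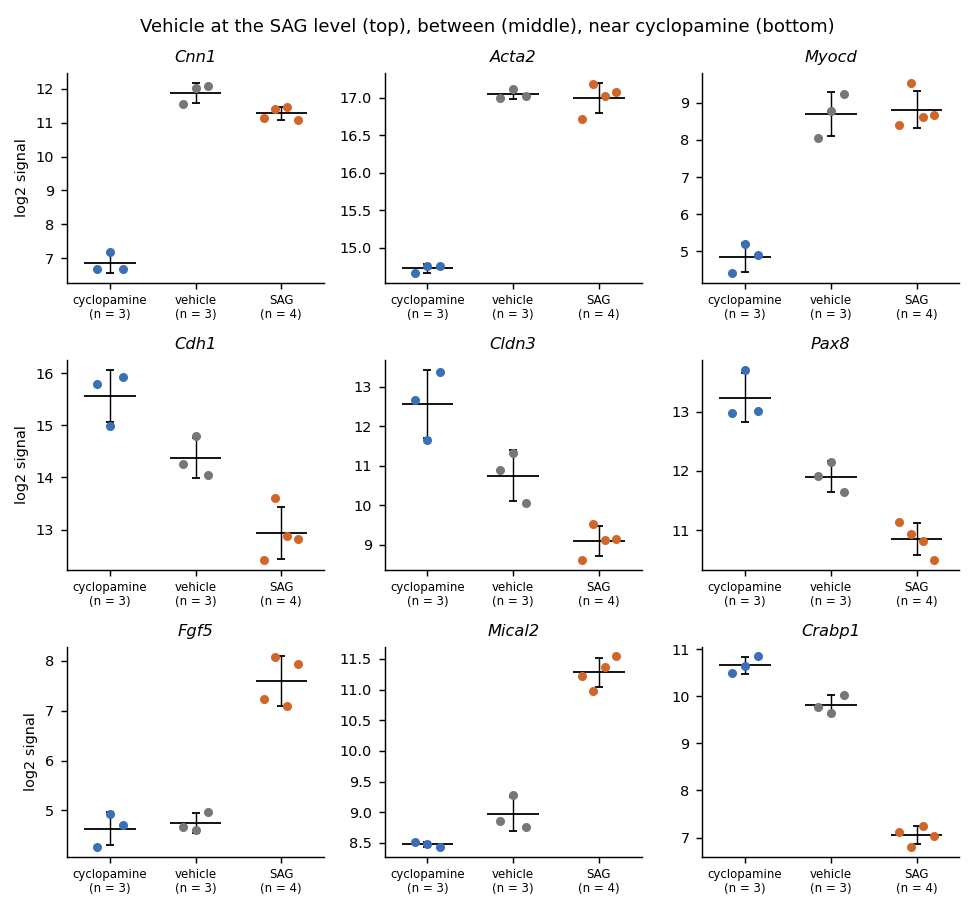
Log2 signal on each array (points), with the group mean (line) and SD (bar), for 3 cyclopamine, 3 vehicle and 4 SAG arrays. Top row, smooth muscle genes with the vehicle at the SAG level; middle row, epithelial genes with the vehicle in between; bottom row, Fgf5, Mical2 and Crabp1, with the vehicle near cyclopamine.

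Genes of mesenchyme and fibroblasts were also higher with SAG: 13 of 18 measured, with 0 higher with cyclopamine and 5 not passing, and a median difference of 0.83. Averaged over the list, the signal was 12.1 to 12.5 with cyclopamine, 13.28 to 13.31 with vehicle and 13.6 to 13.8 with SAG. The median position of the 13 was 70.3%. Inhba, a subunit of the TGF-beta family ligand activin, read 10.37, 9.09 and 10.53 with cyclopamine, 13.33, 13.28 and 13.58 with vehicle and 13.90, 14.36, 14.76 and 14.51 with SAG, without overlap. Its distance was 4.39 ± 0.32 (adjusted p = 1.87e-05) and its vehicle lay at 77.5%. Tcf21, a transcription factor of visceral mesenchyme, read 11.96, 12.42 and 11.99 with cyclopamine, 14.73, 14.58 and 14.27 with vehicle and 14.35, 15.09, 14.83 and 14.76 with SAG. The vehicle of Tcf21 lay at 91.2% of 2.64 ± 0.20 (adjusted p = 2.11e-05), among the SAG arrays.

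Positions of other mesenchymal genes were more spread. Thy1, a surface protein of fibroblasts, lay at 84.9% of 3.60 ± 0.36 (adjusted p = 0.000144), the transcription factor Twist2 at 91.6% of 2.65 ± 0.24 (adjusted p = 7.2e-05), the matrix protein Postn at 61.3% of 3.33 ± 0.34 (adjusted p = 0.00016), and the collagen chain Col1a1 at 68.7% of 1.11 ± 0.13 (adjusted p = 0.000322). The homeobox gene Meox2 was placed at the cyclopamine end. It read 5.50, 6.42 and 5.39 with cyclopamine, 5.999, 5.94 and 5.03 with vehicle and 7.50, 9.35, 9.54 and 9.60 with SAG, so that vehicle and cyclopamine arrays overlapped and every SAG array was above both. Its vehicle lay at -3.62% (-51.2% to 28.4%) of 3.23 ± 0.49 (adjusted p = 0.00171), and its midpoint test did not pass (adjusted p = 0.171).

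Beside the 3 pathway genes, Ajap1 showed the widest difference among named genes higher with SAG. Ajap1, a protein of cell junctions, read 6.79, 10.46 and 8.30 with cyclopamine, 13.85, 13.48 and 13.30 with vehicle and 15.11, 15.07, 14.60 and 14.99 with SAG. The cyclopamine arrays of Ajap1 spread widely, with replicate 2 highest, and the distance was 6.43 ± 0.63 (adjusted p = 0.000123) with the vehicle at 78.2%. Itgbl1, a secreted protein with repeats like those of beta integrins, read 6.31, 7.41 and 6.18 with cyclopamine, 9.24, 9.62 and 9.01 with vehicle and 10.73, 12.11, 12.57 and 12.59 with SAG. The vehicle lay at 49.5% (32.4% to 66.0%) of 5.36 ± 0.44 (adjusted p = 4.31e-05), in the middle of the scale like Hhip.

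Crispld1, a secreted cysteine-rich protein, lay at 60.0% (51.0% to 69.1%) of 4.93 ± 0.22 (adjusted p = 6.63e-07), and Enpep, an aminopeptidase that cleaves angiotensin, at 57.0% of 5.12 ± 0.36 (adjusted p = 1.44e-05). The pseudokinase Trib2 lay at 65.9% of 4.30 ± 0.27 (adjusted p = 6.54e-06) and the proprotein convertase Pcsk5 at 36.6% of 3.98 ± 0.29 (adjusted p = 1.75e-05). Crispld1, Enpep, Trib2 and Pcsk5 were graded, as were Hhip, Gli1, Ptch1 and Itgbl1, and these 8 had the widest differences among the graded genes. In Ntrk3 and Syn3 the cyclopamine step passed and the SAG step did not, with Ntrk3, the receptor of neurotrophin-3, at 67.4% of 5.15 ± 0.40 (adjusted p = 2.98e-05) and the synapsin Syn3 at 69.8% of 4.92 ± 0.38 (adjusted p = 2.98e-05).

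Kcnd3, a voltage-gated potassium channel subunit, and Wfdc1, a secreted protein with a protease inhibitor fold, passed the midpoint test on the SAG side. Kcnd3 read 8.17, 8.09 and 9.09 with cyclopamine, 12.86, 13.20 and 12.68 with vehicle and 13.56, 13.86, 13.38 and 13.53 with SAG. Its vehicle lay at 86.9% of 5.14 ± 0.24 (adjusted p = 9.01e-07), nearer SAG (adjusted p = 0.00823, and 0.0754 without vehicle replicate 2). Wfdc1 lay at 83.5% of 5.18 ± 0.25 (adjusted p = 1.04e-06), nearer SAG (adjusted p = 0.0133, and 0.0673 and 0.109 without vehicle replicate 1 or 2).

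Epithelial genes of the duct were higher with cyclopamine, and the vehicle lay between the ends in each one that passed. Of 22 measured, 17 were higher with cyclopamine, 0 were higher with SAG and 5 did not pass, with a median difference of -2.38. Their positions had a median of 47.5%, and the midpoint test passed in 0 of the 17 by limma, with 1 at an unadjusted p under 0.05. Averaged over the list, the signal was 11.4 to 12.3 with cyclopamine, 10.5 to 11.5 with vehicle and 9.52 to 10.2 with SAG.

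Pax2, a transcription factor that specifies the nephric duct, read 12.49, 14.61 and 13.33 with cyclopamine, 9.79, 10.68 and 9.53 with vehicle and 8.26, 8.50, 8.30 and 8.003 with SAG. The 3 groups of Pax2 did not overlap, its distance was -5.21 ± 0.42 (adjusted p = 4.11e-05) and its vehicle lay at 66.7% (50.4% to 83.7%). Its partner Pax8 read 12.98, 13.71 and 13.02 with cyclopamine, 11.91, 12.15 and 11.64 with vehicle and 11.14, 10.93, 10.82 and 10.49 with SAG, and lay at 55.8% of -2.39 ± 0.22 (adjusted p = 8.1e-05). Cdh1, the cadherin that joins epithelial cells, read 15.79, 14.99 and 15.92 with cyclopamine, 14.25, 14.79 and 14.05 with vehicle and 12.41, 13.61, 12.88 and 12.82 with SAG. Its vehicle lay at 45.6% (20.5% to 69.0%) of -2.64 ± 0.31 (adjusted p = 0.000324), and neither step of Cdh1 passed by itself, with adjusted p of 0.0644 for cyclopamine and 0.0717 for SAG.

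The tight junction claudins Cldn3, Cldn4 and Cldn7 gave positions of 52.3%, 64.6% and 37.7% on distances of -3.46 ± 0.40, -3.66 ± 0.41 and -2.50 ± 0.29 (adjusted p = 0.00031, 0.000273 and 0.000291). Esrp1, which directs epithelial splicing, read 11.37, 10.81 and 11.63 with cyclopamine, 10.03, 10.67 and 9.87 with vehicle and 8.92, 9.18, 8.65 and 8.43 with SAG. Both steps of Esrp1 passed, -1.40 from vehicle to SAG (adjusted p = 0.0383) and -1.08 from cyclopamine to vehicle (adjusted p = 0.0488), which made it the graded member of the list.

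Among the 12 named genes with the widest differences higher with cyclopamine, vehicle positions ran from 18.5% for Sult1e1 to 102% for Mmp12. The midpoint test passed for none of the 12, with a lowest adjusted p of 0.0861 for Cpn1. Sult1e1, the sulfotransferase that inactivates estrogens, read 11.50, 7.72 and 12.11 with cyclopamine, 10.35, 8.75 and 8.96 with vehicle and 5.26, 4.67, 4.30 and 3.97 with SAG. Cyclopamine replicate 2 lay below all vehicle arrays, and every SAG array lay below both groups. The vehicle was at 18.5% (-20.3% to 48.1%) of -5.90 ± 0.87 (adjusted p = 0.00139), and the SAG mean, 4.55, was below the lower quartile of all probe set means, 5.195. The urea transporter genes Slc14a1 and Slc14a2 differed in their placing. Slc14a1 read 10.71, 13.23 and 12.24 with cyclopamine, 10.88, 10.94 and 9.53 with vehicle and 7.48, 8.35, 7.56 and 7.9998 with SAG, at 38.2% of -4.21 ± 0.53 (adjusted p = 0.000523). Slc14a2 read 8.44, 13.75 and 10.44 with cyclopamine, 6.32, 5.29 and 6.01 with vehicle and 5.54, 5.89, 6.01 and 5.82 with SAG, at 98.8% of -5.06 ± 0.91 (adjusted p = 0.0047), and only the cyclopamine arrays of Slc14a2 were above the other groups. The difference of Slc14a2 ran from -6.28 to -3.53 over the alternatives, and the placing of the 2 genes was not tested against each other.

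Fxyd2, a regulatory subunit of the sodium pump, read 13.72, 14.30 and 13.64 with cyclopamine, 10.66, 9.84 and 10.34 with vehicle and 9.62, 10.07, 10.42 and 10.27 with SAG. Vehicle and SAG arrays overlapped, and Fxyd2 was among the 6 probe sets higher with cyclopamine whose vehicle was nearer SAG, at 95.1% of -3.79 ± 0.25 (adjusted p = 9.98e-06, midpoint adjusted p = 0.0133). That midpoint call was lost without vehicle replicate 2 (0.11) or 3 (0.0601). Cpn1, the catalytic subunit of carboxypeptidase N, lay at 85.9% of -5.22 ± 0.41 (adjusted p = 3.23e-05), with a SAG mean of 4.83 that was below the lower quartile of all probe set means, and the protease inhibitor Spink8 at 51.4% of -4.91 ± 0.56 (adjusted p = 0.000296). Of 16 kidney tubule and collecting duct genes, 3 were higher with cyclopamine, against 5.92% of all probe sets, 0 were higher with SAG and 13 did not pass. Without cyclopamine replicate 1 or 3 the count was 1.

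The 6 probe sets that the midpoint test placed with the vehicle nearer cyclopamine were Crabp1, Fgf5, Mical2, Tiam1, Brinp3 and Maob. They are not all the genes with the vehicle apart from SAG, since 162 probe sets passed between SAG and vehicle. Crabp1, which binds retinoic acid inside cells, read 10.49, 10.65 and 10.84 with cyclopamine, 9.78, 9.64 and 10.04 with vehicle and 7.12, 6.80, 7.25 and 7.04 with SAG. The groups of Crabp1 did not overlap, the vehicle lay at 23.4% (13.9% to 32.3%) of -3.61 ± 0.15 (adjusted p = 4.53e-07), and the midpoint call (adjusted p = 0.0178) was lost without vehicle replicate 1, 2 or 3 (0.0958, 0.0976 and 0.0889).

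Fgf5, a fibroblast growth factor, read 4.27, 4.92 and 4.71 with cyclopamine, 4.66, 4.62 and 4.97 with vehicle and 7.23, 8.08, 7.08 and 7.94 with SAG, at 4.00% (-18.9% to 22.8%) of 2.95 ± 0.26 (adjusted p = 6.25e-05). Cyclopamine and vehicle arrays of Fgf5 overlapped, and both group means were below the lower quartile of all probe set means. Mical2, an enzyme that oxidises actin, read 8.51, 8.48 and 8.43 with cyclopamine, 8.86, 9.28 and 8.75 with vehicle and 11.23, 10.98, 11.38 and 11.54 with SAG, at 17.5% (3.62% to 29.9%) of 2.80 ± 0.17 (adjusted p = 4.98e-06). Tiam1, an activator of the GTPase Rac, lay at 6.09% of 2.17 ± 0.18 (adjusted p = 4.11e-05). The midpoint calls had adjusted p of 0.0442 for Fgf5, 0.0369 for Mical2 and 0.0388 for Tiam1. Each was lost without any single vehicle array and without some SAG or cyclopamine arrays, with adjusted p of up to 0.287 for Fgf5, 0.213 for Mical2 and 0.279 for Tiam1.

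In Brinp3 and Maob the vehicle stood above both treated groups. Maob, the enzyme monoamine oxidase B, read 10.85, 10.43 and 11.09 with cyclopamine, 11.76, 11.96 and 12.33 with vehicle and 9.28, 10.24, 9.98 and 9.61 with SAG, and it was the 1 probe set among the 2518 in which both compounds passed on the same side of the vehicle. Its difference between SAG and cyclopamine was -1.01 ± 0.25 (adjusted p = 0.022), lost without SAG replicate 4 or cyclopamine replicate 1 or 3 (adjusted p of up to 0.0911). Brinp3, of a family of neural secreted proteins, read 7.97, 8.78 and 8.89 with cyclopamine, 9.03, 10.04 and 10.04 with vehicle and 6.90, 7.81, 7.58 and 6.86 with SAG, a difference of -1.26 ± 0.34 (adjusted p = 0.035) lost without SAG replicate 1, 3 or 4 or cyclopamine replicate 2 or 3 (up to 0.127).

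Of 18 BMP and TGF-beta genes, 7 were higher with SAG, 2 were higher with cyclopamine and 9 did not pass, and the 9 that passed had a median position of 62.2%. Bmp4, a ligand made by mesenchyme, read 11.71, 10.99 and 12.17 with cyclopamine, 13.74, 14.06 and 13.29 with vehicle and 13.63, 13.95, 14.64 and 13.81 with SAG, at 87.0% of 2.38 ± 0.31 (adjusted p = 0.000678). Chrdl1, a secreted BMP antagonist, read 7.97, 7.58 and 7.41 with cyclopamine, 12.02, 12.18 and 12.06 with vehicle and 11.37, 14.07, 14.16 and 13.65 with SAG, with SAG replicate 1 below the vehicle arrays, at 78.3% of 5.66 ± 0.55 (adjusted p = 0.000115). Sostdc1, which blocks both BMP and Wnt signals, read 6.90, 7.14 and 7.29 with cyclopamine, 7.80, 7.78 and 7.31 with vehicle and 9.78, 10.89, 11.16 and 10.13 with SAG, at 15.5% of 3.38 ± 0.30 (adjusted p = 6.65e-05). The midpoint test passed for neither antagonist (adjusted p = 0.253 for Chrdl1 and 0.136 for Sostdc1), and their positions were not tested against each other. The matricellular genes Ccn1 and Ccn2 lay at 83.0% of 1.72 ± 0.22 and 62.2% of 1.95 ± 0.27 (adjusted p = 0.0006 and 0.000835).

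Of 9 Wnt targets and feedback genes, 3 were higher with cyclopamine, 1 was higher with SAG and 5 did not pass. Axin2, a feedback inhibitor that reads out canonical Wnt signalling, read 12.23, 12.15 and 12.64 with cyclopamine, 11.76, 12.17 and 11.54 with vehicle and 10.40, 10.89, 10.73 and 9.96 with SAG. Vehicle arrays of Axin2 overlapped the cyclopamine arrays, and the vehicle lay at 27.8% of -1.84 ± 0.24 (adjusted p = 0.000602). Znrf3, a ligase that removes Wnt receptors, lay at 61.3% of -1.62 ± 0.22 (adjusted p = 0.000861). Lef1, a transcription factor that mediates Wnt responses and is expressed in mesenchyme too, was the member higher with SAG, by 1.08 ± 0.21 (adjusted p = 0.00668), with the vehicle at 100.3%.

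Of 15 growth factors and receptors, 2 were higher with SAG, 4 were higher with cyclopamine and 9 did not pass. The first count was 1 without vehicle replicate 2, SAG replicate 1 or 2, or cyclopamine replicate 1 or 3, and 4 without cyclopamine replicate 2. The second was 2 without cyclopamine replicate 1 or 3. Fgf10, a mesenchymal ligand for epithelia, was higher with cyclopamine. It read 9.89, 9.76 and 10.03 there, 9.12, 8.95 and 9.36 with vehicle and 8.54, 7.24, 8.74 and 7.63 with SAG, without overlap, a difference of -1.86 ± 0.32 (adjusted p = 0.00341). Met, the epithelial receptor of hepatocyte growth factor, differed by -1.59 ± 0.23 (adjusted p = 0.00131). Of 11 retinoic acid genes 2 passed, both higher with cyclopamine: Crabp1 and the synthetic enzyme Aldh1a3, at 72.6% of -2.42 ± 0.29 (adjusted p = 0.000381). Of 8 androgen and steroid genes 2 passed, Sult1e1 and the glucocorticoid receptor Nr3c1, the latter higher with SAG by 1.04 ± 0.20 (adjusted p = 0.00604). Over all probe sets 11.3% passed.

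Of 22 cell cycle genes, 8 were higher with SAG, 0 were higher with cyclopamine and 14 did not pass, with a median difference of 0.43. Their median position was 99.4%. E2f1, which turns on genes of DNA replication, read 8.63, 8.98 and 8.52 with cyclopamine, 9.64, 9.84 and 9.63 with vehicle and 9.81, 10.02, 9.79 and 9.84 with SAG, a difference of 1.15 ± 0.14 (adjusted p = 0.000429). The cyclin gene Ccna2 differed by 1.57 ± 0.26 (adjusted p = 0.00307), with the vehicle at 110.1%. Omitting SAG replicate 2 or cyclopamine replicate 3 left 2 of the 8, omitting SAG replicate 3 or 4 left 4, and omitting vehicle replicate 1 or 3 left 5. Averaged over the 22 genes, the signal was 11.6 to 11.9 with cyclopamine, 12.2 to 12.4 with vehicle and 12.1 to 12.4 with SAG.

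Lists of sterol, stress and cilium genes had from 1 to 3 members that passed. Over all probe sets 11.3% passed, and the lists of cholesterol, hypoxia, stress and cilium genes had smaller shares. Of 15 genes of cholesterol synthesis and uptake, 1 was higher with cyclopamine and 0 with SAG. This was Nsdhl, an enzyme of sterol synthesis, whose call was lost without SAG replicate 4 or cyclopamine replicate 1 or 3 (adjusted p of up to 0.0813). Of 7 targets of the sterol receptor LXR, 3 were higher with cyclopamine, a larger share than over all probe sets, and 5 were without cyclopamine replicate 3. All 7 had a higher mean with cyclopamine than with SAG, and 6 of the 7 had an unadjusted p under 0.05 by limma. Abca1, the exporter of cholesterol, differed by -0.90 ± 0.18 (adjusted p = 0.00752) with the vehicle at 78.6%. Of 14 hypoxia and glycolysis genes, 15 of endoplasmic reticulum and amino acid stress and 10 of the primary cilium, 1 in each passed: the vasodilator peptide Adm (higher with SAG), the serine synthesis enzyme Psat1 (higher with cyclopamine) and the cilium transport protein Ift172 (higher with SAG). At an unadjusted p under 0.05 these lists held 7, 8 and 5. Each of these 3 calls was lost with at least 1 array left out, Adm without cyclopamine replicate 1 alone, with adjusted p of up to 0.0513 for Adm, 0.143 for Psat1 and 0.117 for Ift172. Whether or not they passed, 13 of the 14 hypoxia genes, 10 of the 15 stress genes and 5 of the 10 cilium genes had a higher mean with SAG. Over all probe sets 11433 of 22206 did. Psat1 thus went against most of its list. The hypoxia list mean was 12.4 to 12.8 with cyclopamine, 12.1 to 13.0 with vehicle and 12.9 to 13.6 with SAG. Of 11 apoptosis genes 4 were higher with cyclopamine. Omitting SAG replicate 1, 2 or 4 left 2, and omitting cyclopamine replicate 3 left 1. Bid, which links death receptors to mitochondria, differed by -1.31 ± 0.29 (adjusted p = 0.014).

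Genes known from activated macrophages were among the widest differences higher with cyclopamine, and their vehicle arrays overlapped the SAG arrays. Ccl3, a chemokine that attracts leukocytes, read 15.04, 16.32 and 12.75 with cyclopamine, 11.10, 9.36 and 11.24 with vehicle and 11.75, 8.91, 9.13 and 9.91 with SAG, at 86.5% of -4.78 ± 0.87 (adjusted p = 0.00503). Mmp12, the macrophage elastase, read 15.31, 14.81 and 13.97 with cyclopamine, 10.67, 9.15 and 9.52 with vehicle and 13.30, 9.62, 8.40 and 8.23 with SAG, at 102% of -4.81 ± 1.02 (adjusted p = 0.011). SAG replicate 1 stood highest of its group in both genes. Ccl9, another chemokine, lay at 96.6% of -4.45 ± 0.82 (adjusted p = 0.00542), and Atp6v0d2, a proton pump subunit rich in osteoclasts and macrophages, at 97.9% of -3.97 ± 0.52 (adjusted p = 0.000648).

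In the macrophage marker list, 2 of 14 genes were higher with cyclopamine, 2 were higher with SAG and 10 did not pass. The first count became 4 on omitting SAG replicate 1, and 1 on omitting SAG replicate 2 or 4 or cyclopamine replicate 1. The second became 3 on omitting cyclopamine replicate 1, 0 on omitting cyclopamine replicate 2 or 3, and 1 on omitting any single vehicle array or SAG replicate 2, 3 or 4. Averaged over the list, the signal was 9.96 to 11.2 with cyclopamine, 9.79 to 10.3 with vehicle and 9.78 to 10.5 with SAG, so the groups overlapped. The defining genes Csf1r and Ptprc differed by 0.25 ± 0.24 and -0.43 ± 0.21 (adjusted p = 0.599 and 0.237), and neither they nor Adgre1 (adjusted p = 0.996) passed. Cd14, a receptor for bacterial lipid, was higher with cyclopamine by -2.29 ± 0.37 on the SAG minus cyclopamine scale (adjusted p = 0.00246). Aif1, an actin-binding protein of macrophages, was higher with SAG by 1.69 ± 0.39 (adjusted p = 0.0176), a call lost without cyclopamine replicate 2 or 3 (up to 0.0657). The share of macrophages in the differences of Ccl3, Mmp12 and Ccl9 was not tested.

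Markers of other cell types moved with some results, and their part in them was not tested. The counts stand against 11.3% of all probe sets that passed. Of 13 endothelial genes, 6 were higher with SAG and 0 with cyclopamine. Omitting SAG replicate 1, 2, 3 or 4 left 2, 1, 2 and 1 of these, omitting cyclopamine replicate 1 or 3 left 4 and 2, and omitting vehicle replicate 1 or 2 left 4. The list mean was 7.83 to 9.13 with cyclopamine, 8.73 to 9.70 with vehicle and 9.37 to 9.65 with SAG. Cdh5, the cadherin of vessels, read 11.99, 6.40 and 10.29 with cyclopamine, 12.73, 12.03 and 11.04 with vehicle and 13.80, 13.47, 13.42 and 13.29 with SAG, a difference of 3.94 ± 1.00 (adjusted p = 0.027) that was 2.36 without cyclopamine replicate 2. That call of Cdh5 was lost without any single SAG array (up to 0.0613). Of 6 mesothelial genes 1 passed, Lrrn4, higher with cyclopamine by -3.05 ± 0.62 on the SAG minus cyclopamine scale (adjusted p = 0.00905), and the list mean ranged from 9.25 to 11.4 over the cyclopamine arrays. The mesothelial count was 3 without cyclopamine replicate 2 and 2 without SAG replicate 1. Of 6 adipocyte genes 1 passed, Lpl, a lipase, with a difference of -1.43 ± 0.33 that was -0.94 without cyclopamine replicate 1. The call of Lpl (adjusted p = 0.0181) was lost without SAG replicate 2 (0.0511). By the same test, 0 passed of 9 neural and glial, 8 gonadal, 3 red blood cell and 7 skeletal muscle genes by limma. At an unadjusted p under 0.05 these numbered 1, 2, 1 and 0. Arrays of the same group still differed in some of these lists. The neural and glial list mean was 6.75 to 8.91 with cyclopamine, 7.65 to 9.21 with vehicle and 6.43 to 8.40 with SAG. The gonadal list mean was 6.26 to 6.47, 6.07 to 6.81 and 6.33 to 7.54 in the same order, and was highest on SAG replicate 1.

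**Figure D5:**
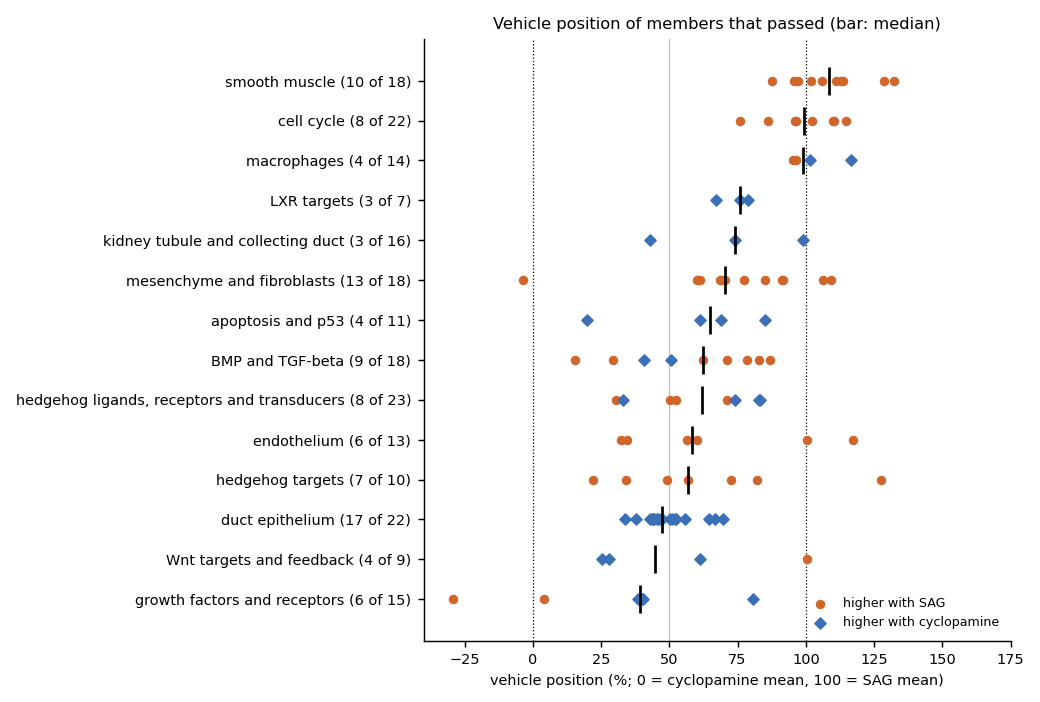
Position of the vehicle mean in percent (horizontal axis, 0 at the cyclopamine mean and 100 at the SAG mean) for each member that passed between SAG and cyclopamine, in the 14 lists with at least 3 such members; black bars mark the medians and the counts give members that passed of those measured. Medians run from 39.1% for growth factors and receptors to 108.5% for smooth muscle. Those of Wnt targets and feedback (44.6%), duct epithelium (47.5%) and the cell cycle (99.4%) lie between.

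Of the genes selected for naming, 115 passed between SAG and cyclopamine, 88 kept that call with each array left out in turn and 82 kept it under each alternative run. None of the 115 changed direction under any of them. Many of the 115 were chosen by a wide difference, by a small p or after their values were seen. That choice favours a kept call and a kept direction. Among those that kept the call throughout were Hhip, Gli1, Ptch1, Gli2, Foxf1, Gpc3, Cnn1, Acta2, Myocd, Inhba, Pax2, Cdh1, Crabp1, Sult1e1 and Fgf5.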

How the data were processed

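RNA of cultured mouse ducts was measured on 10 one-colour Affymetrix arrays, 1 per sample, in 3 groups taken from the array titles. The deposited log2 signals (inferred from their range, 2.95 to 18.7) were used as the authors gave them. The sources used here do not give the genome build or how probe sets were summarized and normalized. Precision is limited by the number of arrays. Of 22206 probe sets, 19572 had 1 gene symbol in the platform annotation, 0 had several and 2634 had none. For 55 genes with several probe sets the one with the highest mean signal was used. Each group was fitted as a mean in limma 3.58.1 (R 4.3.3) with empirical Bayes variances, all 3 groups sharing 1 spread. Tests were two-sided, p-values were adjusted by Benjamini-Hochberg over all probe sets with a threshold of 0.05, and errors are the fit's standard errors unless given as SD. Intervals of positions are Fieller intervals at 95%, each for its own probe set and not adjusted for the number of probe sets. An interval can therefore exclude the midpoint or an end where the adjusted test did not pass. The p-values measure the spread between these samples. The fit was tested first on simulated data with normal noise and effects in the SAG arrays only. A vehicle level between the ends was not simulated, so positions there were not tested in this way.

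Of 362 genes on 26 lists, 326 were measured. The members and lists were chosen with earlier results of these data known. Named were the core pathway genes, the 12 widest differences in each direction with no overlap of SAG and cyclopamine arrays, up to 5 members of each list by smallest p, up to 8 genes by size on each side of the midpoint test and in the graded class, and genes with the vehicle outside both ends. The genes Foxd2, Bcl2, Boc, Shh, Scube2, Tagln, Meox2, Col1a1, Cdh1, Cldn3, Col4a1, Col4a2 and the Hox genes were chosen after their values were seen. Arrays were not treated as paired by replicate number. Correlations of their deviations from the group means ran from -0.193 to 0.237 for the same number and from -0.221 to 0.234 for different numbers. Such correlations cannot exclude a pairing. Alternatives were a second quantile normalization, median centring, a filter on the dimmest 25% of probe sets, other variance models, array weights, a replicate block, a fit on the SAG and cyclopamine arrays alone, the mean over probe sets of a gene, and each array left out in turn.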

Additional observations from a re-analysis of the deposited data

Results flagged for a closer look

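In 4 of 144 groups of 4 SAG arrays examined, 1 array stood far from the others by Dixon's criterion, which chance meets in about 1 group in 20. Foxf1 was 7.106 on SAG replicate 3, against 7.289 to 7.293 on the other SAG arrays, so the gap was small. Meox2 was 7.496 on SAG replicate 1, against 9.354 to 9.604 on the others. Sufu was 11.17 on SAG replicate 4, against 11.369 to 11.405 on the others. The mean of the androgen and steroid genes was 9.445 on SAG replicate 1, against 8.10 to 8.292 on the others.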

How the results depend on the processing

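Each count below was recomputed under the alternatives named with the processing, and 1 more was chosen after seeing the data: SAG replicate 1 and cyclopamine replicate 2 left out together. The balance of directions turned: 1414 higher with SAG against 1193 with cyclopamine after centring, 1297 against 1281 after quantile normalization and 810 against 803 with the replicate block. The 2518 probe sets that differed between SAG and cyclopamine ranged from 1843 to 2855 with 1 array left out, and the 1203 higher with SAG from 867 to 1302. With the replicate block 1613 differed, 803 of them higher with cyclopamine. Whether the replicate numbers used in that block pair the arrays could not be decided from the correlations. The 47 with the vehicle nearer SAG ranged from 8 to 92 with 1 array left out and were 71 with array weights, 12 with the block, 8 with unmoderated variances and 83 with both arrays left out. The 6 nearer cyclopamine ranged from 0 to 7 and were 1 with the block, 0 with unmoderated variances and 14 with both left out. The 50 graded probe sets ranged from 15 to 116 and were 93, 13, 6 and 106 under weights, block, unmoderated variances and both left out. The 95 SAG steps ranged from 29 to 168 and were 160, 13, 3 and 150 under the same 4. The 892 cyclopamine steps ranged from 410 to 1150 and were 527 with the block and 494 with unmoderated variances. The 1 probe set outside both ends ranged from 0 to 7 and was 4 with weights, 0 with unmoderated variances and 6 with both left out. The 503 ordered without overlap ranged from 528 to 804 and were 1008 with both left out, with fewer arrays to place in order. The median position of probe sets higher with SAG, 73.7%, ranged from 70.8% to 75.5% and was 69.3% after quantile normalization, 65.8% after centring and 70.4% with the block. Causes were not tested. A fit on the SAG and cyclopamine arrays alone gives no position. Small lists depend on single arrays as stated beside them. With the block 2 of 22 cell cycle genes passed, and with unmoderated variances 3 did, while 0 endothelial genes did.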

Other observations

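Gene families were counted after their values were seen, so their counts describe these arrays only. Some claudins, collagen chains and proton pump subunits were also on the lists above, so their counts partly repeat those results. Over all probe sets, 5.42% were higher with SAG and 5.92% with cyclopamine. In the Hoxb cluster 7 of 9 measured genes were higher with cyclopamine and 0 with SAG, with a median difference of -1.64 and a median position of 52.6%. Hoxb6 read 9.95, 9.61 and 10.57 with cyclopamine, 8.76, 8.92 and 8.29 with vehicle and 7.26, 7.54, 7.49 and 7.34 with SAG, a difference of -2.63 ± 0.23 (limma, adjusted p = 5.36e-05), in order and without overlap. Hoxb8 and Hoxb9 were ordered the same way, with differences of -3.93 ± 0.29 and -2.89 ± 0.32 (adjusted p = 1.87e-05 and 0.000245). In the Hoxc cluster 4 of 9 were higher with SAG and 0 with cyclopamine, among them Hoxc6 by 1.26 ± 0.21 and Hoxc5 by 1.90 ± 0.37 (adjusted p = 0.0032 and 0.00753), with a median position of 82.2%. In the Hoxa cluster 0 of 8 passed by limma, with 2 at an unadjusted p under 0.05, and in the Hoxd cluster 1 of 7 was higher on each side. Hox genes encode transcription factors that give embryonic tissues their position along the body axis.

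Of 42 collagen chains, 16 were higher with SAG, 4 were higher with cyclopamine and 22 did not pass, with a median position of 64.5%. The basement membrane chain Col4a1 read 8.97, 8.23 and 8.28 with cyclopamine, 10.49, 10.49 and 10.42 with vehicle and 11.02, 10.90, 10.98 and 10.95 with SAG. Its partner chain Col4a2 read 10.68, 10.27 and 9.73 with cyclopamine, 11.80, 12.16 and 12.10 with vehicle and 12.59, 12.50, 12.64 and 12.67 with SAG. Both were in order without overlap, with differences of 2.47 ± 0.17 and 2.37 ± 0.20 (adjusted p = 1.44e-05 and 4.82e-05). Of 23 claudins 7 were higher with cyclopamine and 1 with SAG. Of 23 CC chemokines 7 were higher with cyclopamine and 1 with SAG, at a median position of 91.6%. Of 22 subunits of the vacuolar proton pump 7 were higher with cyclopamine and 1 with SAG. Of 20 beta protocadherins, near-identical copies whose probe sets may not tell them apart, 9 were higher with SAG and 0 with cyclopamine.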
